A study of Mus musculus with 2 samples.

Results

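Described here are 10 transcription factors of the oligodendrocyte lineage, Olig1, Olig2, Sox10, Sox8, Sox6, Nkx2-2, Nkx6-2, Myrf, Zfp488 and St18, as measured in single cells of the mouse striatum at 4 stages of that lineage. The rule that picks them goes by name and uses no measured value of theirs, but the names were chosen with earlier results of these data known. All 10 were found among the 31053 genes of the table. The ipsilateral library came from the lateral striatum on the side of a 60-minute middle cerebral artery occlusion (MCAO), performed on male C57/BL6 mice at postnatal day 10 and followed by 2 weeks of reperfusion. The contralateral library came from the lateral striatum of the opposite side. All animals had the occlusion, so the contralateral side is not a sham operation. Each library pooled tissue of 3 animals, and the labels do not say whether the same animals gave both. Before droplet sequencing the dissociated cells went through a sort that kept those with A2B5 or O4, or both, on their surface.

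Oligodendrocytes arise from dividing precursors that commit, pass through a short newly formed state and become myelin-making mature cells. Basic helix-loop-helix, SOX, homeodomain and zinc finger factors steer that course: some keep the lineage open, some hold differentiation back, and some switch on the genes of myelin. Their levels are known to change from stage to stage, which makes them a way to read where a cell stands.

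Captured RNA molecules, counted by their unique molecular identifiers (UMIs), were summed over the barcodes of 1 stage in 1 library and are given as CPM, a gene's count scaled to the total of that sum. Barcodes had at least 500 detected genes and at most 15% mitochondrial UMIs, which left 2505 of 2775 in the ipsilateral and 1913 of 2066 in the contralateral library, with medians of 19851 and 14595 UMIs. No barcode sequence was shared between the libraries. Stages were set by marker genes that include none of the 10 factors, so stage names rest on RNA alone. The gate named 375 ipsilateral and 295 contralateral precursors, 163 and 73 committed cells, 70 and 43 newly formed cells, and 953 and 524 mature cells. The markers that set a stage were by construction highest there, with 1 newly formed marker, Casr, at or near 0 throughout. Newly formed cells also scored high on committed markers: their median committed score, 0.570 in the ipsilateral and 0.639 in the contralateral library, lay above their own, 0.483 and 0.461. Committed markers summed to 3811 CPM in ipsilateral and 4235 CPM in contralateral newly formed cells, beside 4510 and 3799 CPM for newly formed markers. The newly formed class is the thinnest: 45 of its 113 barcodes lay within 0.05 above its score threshold of 0.4, and clustering gave 57.5% of them the same name, against 98.5% of precursors, 77.1% of committed and 99.2% of mature barcodes. Another 309 ipsilateral and 254 contralateral barcodes met no gate and were left out. Markers of microglia summed to at most 2.32 CPM in any stage, and those of astrocytes reached 502 CPM in ipsilateral and 633 CPM in contralateral precursors, whose share in the factor levels of precursors was not tested.

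The genes lie on 8 mouse chromosomes (build GRCm38). Olig2 (chr16:91225457-91228677) and Olig1 (chr16:91269772-91271933), both on the plus strand, are neighbours with 41094 bases between them. St18 (chr1:6487231-6860940) is also on the plus strand. On the minus strand lie Nkx2-2 (chr2:147177546-147194243), Nkx6-2 (chr7:139579376-139582797), Sox6 (chr7:115470872-116038796), Zfp488 (chr14:33967070-33978764), Sox10 (chr15:79154908-79165240), Sox8 (chr17:25565892-25570686) and Myrf (chr19:10208272-10240748). The 3′ end of Nkx6-2 shares 277 bases with Inpp5a on the opposite strand, and that of Olig1 shares 157 bases with the non-coding Gm15966. Whether counting used the strand is not given in the sources used here, so reads in those stretches could belong to either gene. Inpp5a itself stood at 22.2 CPM in ipsilateral and 23.5 CPM in contralateral mature cells, where Nkx6-2 had 703 and 624 CPM.

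Promoter sequence was at hand for 6 of the 10 genes (RefSeq, build GRCm38.p6, from 250 bases before to 50 after a start): Olig2, Nkx2-2, Nkx6-2, Zfp488, Sox8 and, with 6 starts, Sox6. Shown here are 3 genes with a single start whose level peaked in the middle of the lineage and 1 that peaked at its end. Capitals mark, on either strand, the E-box CANNTG, the core bound by basic helix-loop-helix dimers such as OLIG2 with its partners. They also mark the SOX cores ACAAAG and ACAATG, and CTGGNAC, a loose MYRF pattern searched with any base at N.
Nkx2-2 (chr2:147186353-147186652, minus strand): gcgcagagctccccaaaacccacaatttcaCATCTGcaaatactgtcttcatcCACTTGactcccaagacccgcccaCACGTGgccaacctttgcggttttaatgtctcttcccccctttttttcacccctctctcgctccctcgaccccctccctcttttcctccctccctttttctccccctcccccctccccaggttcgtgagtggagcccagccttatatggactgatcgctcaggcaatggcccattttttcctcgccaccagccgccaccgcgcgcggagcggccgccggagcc
Zfp488 (chr14:33978715-33979014, minus strand): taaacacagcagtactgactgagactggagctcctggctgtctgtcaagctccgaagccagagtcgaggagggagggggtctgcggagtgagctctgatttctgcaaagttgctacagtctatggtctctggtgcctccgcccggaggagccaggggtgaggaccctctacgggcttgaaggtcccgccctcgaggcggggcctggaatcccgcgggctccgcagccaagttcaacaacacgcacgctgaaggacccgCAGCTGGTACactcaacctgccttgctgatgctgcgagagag
Sox8 (chr17:25570637-25570936, minus strand): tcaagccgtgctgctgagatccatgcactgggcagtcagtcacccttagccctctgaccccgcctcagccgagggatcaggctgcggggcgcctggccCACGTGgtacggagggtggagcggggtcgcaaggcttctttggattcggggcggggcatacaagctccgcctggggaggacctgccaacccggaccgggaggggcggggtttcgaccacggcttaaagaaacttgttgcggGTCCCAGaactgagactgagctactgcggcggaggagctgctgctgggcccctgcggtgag
Nkx6-2 (chr7:139582748-139583047, minus strand): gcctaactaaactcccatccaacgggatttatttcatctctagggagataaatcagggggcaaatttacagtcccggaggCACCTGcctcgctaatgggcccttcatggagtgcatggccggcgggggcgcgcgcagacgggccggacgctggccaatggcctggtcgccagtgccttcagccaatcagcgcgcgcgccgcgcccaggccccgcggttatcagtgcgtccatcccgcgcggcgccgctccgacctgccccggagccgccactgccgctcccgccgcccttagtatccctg
The Nkx2-2 window holds 3 E-boxes and the Nkx6-2 window 1. The Zfp488 and Sox8 windows hold 1 E-box and 1 match to the MYRF pattern each, which overlap in Zfp488 and stand apart in Sox8. The base at N is T in Zfp488 and, read on the opposite strand, G in Sox8. E-boxes of this form occur in 72.3% of 32851 mouse promoter windows of the same length, the MYRF pattern in 19.3%, ACAAAG in 18.7% and ACAATG in 12.6%, so a match is a description of the letters and not a bound site. The RefSeq start used for Nkx2-2 starts no transcript of the GENCODE annotation, unlike those of the other 3.

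Over the 4 stages the factors took distinct courses, and for all but Myrf the stage of the highest level was the same in both libraries. Olig1 and Olig2 were highest in precursors. Nkx2-2, Sox8 and Sox6 were highest in committed cells, and Zfp488 and Sox10 in newly formed cells. Nkx6-2 was highest in mature cells by a wide margin and St18 by a narrow one, and Myrf was near its highest in both newly formed and mature cells. Sox6 all but disappeared in mature cells.

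**Figure D1:**
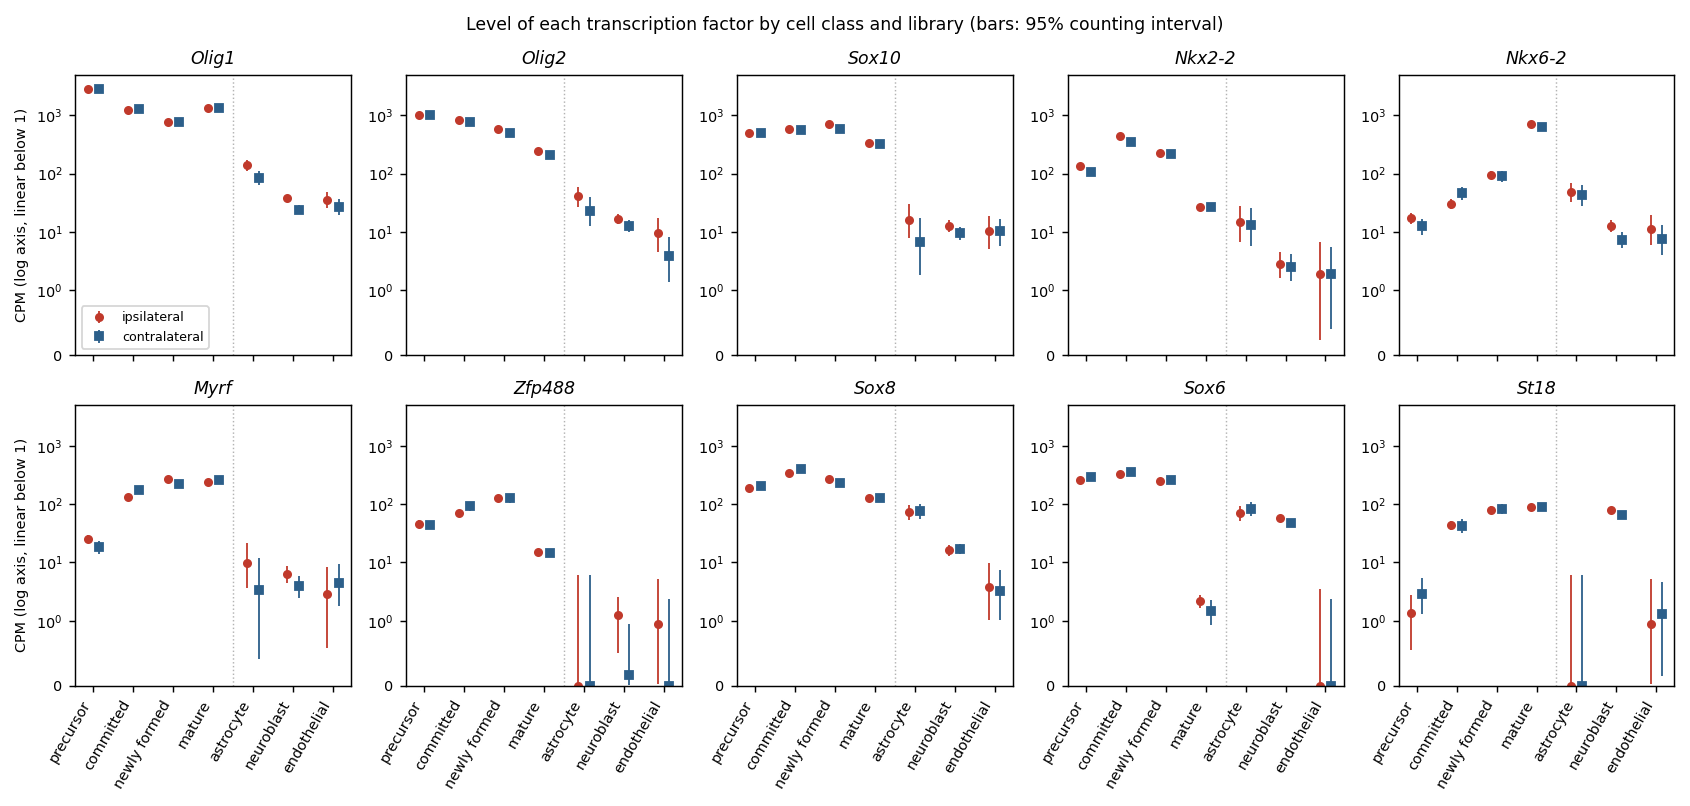
Level of each factor (CPM, log axis that is linear below 1) in the 4 lineage stages and 3 classes outside the lineage, with the ipsilateral library as red circles left of the contralateral library as blue squares and bars for the exact Poisson 95% interval of counting error. Olig1 and Olig2 start high and Nkx6-2 ends high, at 703 and 624 CPM in mature cells of the ipsilateral and contralateral library.

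Stage steps were tested with edgeR's quasi-likelihood test on the 8 sums of 4 stages in 2 libraries, with trimmed mean of M-values (TMM) scaling, library as a block and Benjamini-Hochberg adjustment over 12152 genes. All 10 factors passed its filter on low counts, and a change is called where the adjusted p is under 0.05. With library as a block, the spread behind each p comes from how far the stage differences disagree between the libraries, which are the 2 sides of the brain. The test moderates that spread over all genes tested, so an SE can be smaller or larger than a gene's own disagreement. From precursor to committed, 8 of the 10 rose and 1 fell, where 17.0% of all genes rose and 21.7% fell. From committed to newly formed 4 rose and 4 fell, where 8.63% and 7.92% of all genes did. From newly formed to mature 4 rose and 6 fell, where 29.1% and 27.2% did. Across the whole span, mature over precursor, 3 rose and 4 fell, a share near that of all genes, of which 36.3% rose and 37.1% fell. Scaling matters for these counts: the TMM factor of mature cells was 0.701 in the ipsilateral and 0.702 in the contralateral library, against 1.22 and 1.25 in precursors. With library sizes alone the median log2 fold change of all genes moved to −0.18, −0.13, −0.54 and −0.84 over the 4 comparisons in the order above. The higher share of called genes then dropped to 29.5%, 38.0%, 23.5% and 19.2%, against 43.8%, 52.1%, 51.7% and 49.4% with TMM. Directions that turn or end under that scaling are given with each gene.

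**Figure D2:**
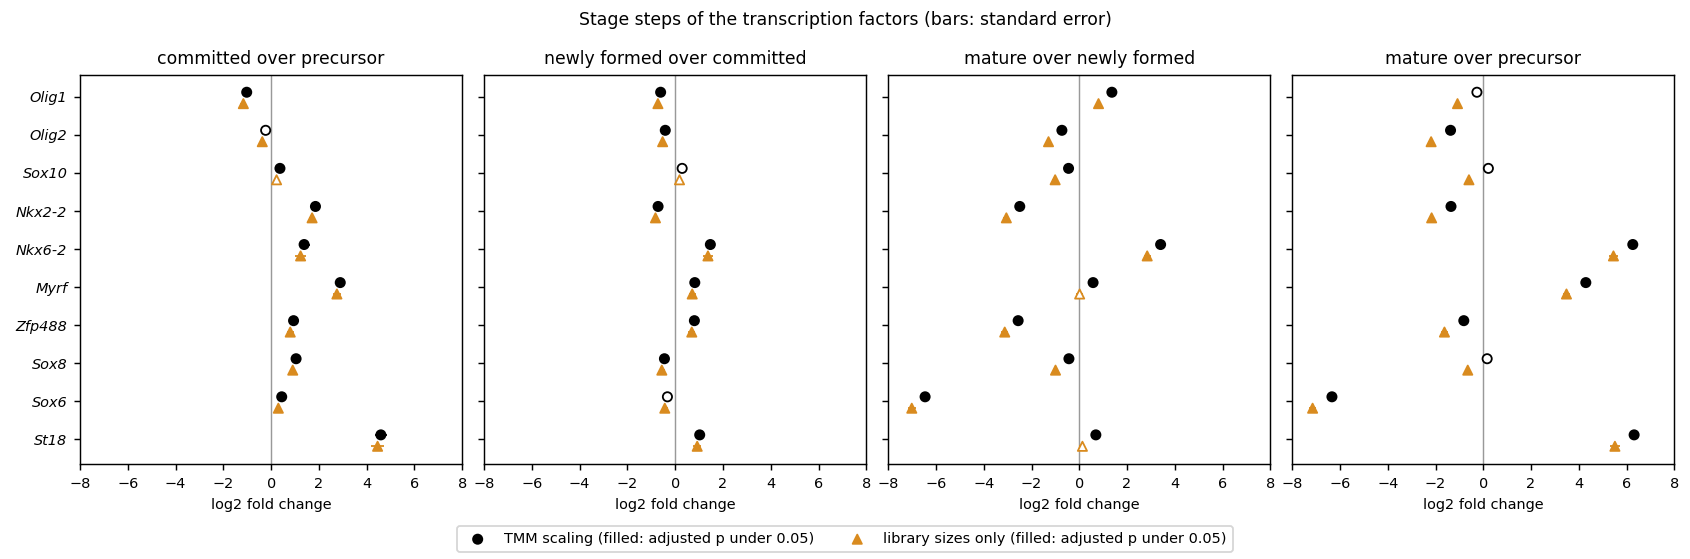
Log2 fold change of each factor for 3 successive stage steps and for mature over precursor, with TMM scaling (black circles) and with library sizes only (orange triangles), filled where the adjusted p is under 0.05 and with bars for the standard error. Only Sox10 and Sox8, mature over precursor, lie on opposite sides of 0 under the 2 scalings, at 0.21 against −0.60 and at 0.16 against −0.65.

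Olig1 and Olig2 are related basic helix-loop-helix factors. Olig2 specifies the lineage and stays with it, while Olig1 is known for its part in maturation and in repair of myelin. Olig1 stood at 2830, 1240, 764 and 1355 CPM in precursor, committed, newly formed and mature cells of the ipsilateral library, and at 2834, 1292, 769 and 1326 CPM in those of the contralateral library. It thus fell by more than its spread to a low in newly formed cells and came back in part in mature cells, with no overlap between stages. The committed over precursor log2 fold change was −1.02 ± 0.13 (SE, 2 libraries, adjusted p = 9.32e-06), newly formed over committed −0.61 ± 0.13 (adjusted p = 0.00338) and mature over newly formed 1.37 ± 0.13 (adjusted p = 1.41e-07). Mature over precursor it was −0.27 (adjusted p = 0.0657) with TMM scaling and −1.08 with library sizes only (adjusted p = 4.05e-07). DESeq2 (adjusted p = 0.000979) and 3 other alternatives, the stricter gate among them (adjusted p = 0.0222), also called that fall.

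Olig2 stood at 1027, 823, 593 and 242 CPM in the 4 stages of the ipsilateral library, and at 1010, 757, 503 and 208 CPM in those of the contralateral library. Unlike Olig1 it was lower at each later stage in both libraries. Its committed over precursor change, −0.23 ± 0.12, missed the threshold (adjusted p = 0.137) and passed it with library sizes only (−0.37, adjusted p = 0.0159). Newly formed over committed it fell by 0.42 on the log2 scale (SE 0.12, adjusted p = 0.0257), a call lost without the library block (adjusted p = 0.0586) or without barcodes called as doublets (adjusted p = 0.0775). Mature over newly formed it fell further (log2 fold change −0.73 ± 0.12, adjusted p = 6.74e-05), and the whole span, mature over precursor, came to −1.37 ± 0.12 (adjusted p = 1.52e-08).

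Sox10 and Sox8 are SOX factors of group E. Sox10 is needed for terminal differentiation and switches on myelin genes, and Sox8 overlaps with it in function. Sox10 stood at 489, 588, 719 and 334 CPM in the 4 stages of the ipsilateral library, and at 499, 570, 592 and 318 CPM in those of the contralateral library. It was the flattest of the 10 factors. Its rise in committed over precursor cells (log2 fold change 0.37 ± 0.12, adjusted p = 0.0213) was lost with library sizes only (adjusted p = 0.131) and with a stricter gate (adjusted p = 0.192). Newly formed over committed gave 0.29 ± 0.12 (adjusted p = 0.118), which passed with the stricter gate (0.48, adjusted p = 0.0193), without doublet calls (0.35, adjusted p = 0.0447) and with clusters in place of the gate (0.40, adjusted p = 0.0167). Mature over newly formed it fell (log2 fold change −0.45 ± 0.12, adjusted p = 0.00391). Mature over precursor its direction depended on the scaling, with 0.21 ± 0.12 under TMM (adjusted p = 0.111) and −0.60 ± 0.11 with library sizes only (adjusted p = 0.000113).

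Sox8 stood at 190, 347, 268 and 127 CPM in the 4 stages of the ipsilateral library, and at 207, 402, 231 and 126 CPM in those of the contralateral library. Both committed values lay above all others. The log2 fold change was 1.04 ± 0.11 committed over precursor (adjusted p = 1.58e-06) and −0.45 ± 0.12 newly formed over committed (adjusted p = 0.0131). Mature over newly formed it was −0.43 ± 0.11 (adjusted p = 0.0038), a call lost with the stricter gate (−0.28, adjusted p = 0.109). Like Sox10 it turned with the scaling mature over precursor, from 0.16 ± 0.11 (adjusted p = 0.187) under TMM to −0.65 ± 0.11 (adjusted p = 4.7e-05) with library sizes only.

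Sox6 belongs to SOX group D, which is known to hold oligodendrocyte differentiation back. It stood at 263, 330, 245 and 2.18 CPM in the 4 stages of the ipsilateral library, and at 289, 352, 258 and 1.48 CPM in those of the contralateral library. Levels in the 3 early stages were close together, and the mature sums held only 60 ipsilateral and 22 contralateral UMIs. It rose in committed over precursor cells (log2 fold change 0.44 ± 0.11, adjusted p = 0.0038). Newly formed over committed gave −0.33 ± 0.11 (adjusted p = 0.0647), a fall that was called with library sizes only (−0.44, adjusted p = 0.0163), with clusters in place of the gate (−0.76, adjusted p = 2.3e-05) and with the stricter gate (−1.08, adjusted p = 1e-06). The largest drop came at the last step, mature over newly formed, at −6.46 ± 0.16 (adjusted p = 2.06e-14), the largest change of any factor at any successive step. Mature over precursor it was −6.34 ± 0.15 (adjusted p = 4.02e-15).

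Nkx2-2 is a homeodomain factor known to time the onset of differentiation. It stood at 134, 441, 230 and 26.9 CPM in the 4 stages of the ipsilateral library, and at 105, 343, 214 and 26.6 CPM in those of the contralateral library. Committed cells held the peak in both, and no stage overlapped another. The log2 fold change was 1.86 ± 0.12 committed over precursor (adjusted p = 3.66e-09), −0.72 ± 0.12 newly formed over committed (adjusted p = 0.000409) and −2.49 ± 0.13 mature over newly formed (adjusted p = 3.61e-11). Mature cells thus ended below precursors (log2 fold change −1.35 ± 0.12, adjusted p = 2.22e-08).

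Nkx6-2, the other homeodomain factor, is known from mature oligodendrocytes and the axon-glia junction. It stood at 17.2, 30.5, 94.9 and 703 CPM in the 4 stages of the ipsilateral library, and at 12.4, 46.4, 89.5 and 624 CPM in those of the contralateral library. Every step was upward in both libraries. Mature over newly formed the log2 fold change was 3.41 ± 0.16 (adjusted p = 1.2e-11), newly formed over committed 1.47 ± 0.20 (adjusted p = 6.05e-05) and mature over precursor 6.26 ± 0.18 (adjusted p = 1.45e-14). The first step, committed over precursor, is the least firm: 1.38 ± 0.23 (adjusted p = 0.000151) over both libraries, but 0.96 in the ipsilateral and 1.98 in the contralateral library alone, and 0.32 (adjusted p = 0.545) with the stricter gate. In contralateral committed cells a single barcode held 20.0% of the 60 Nkx6-2 UMIs.

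Myrf encodes a membrane-bound factor that is cleaved to enter the nucleus and is required for myelin gene expression. It stood at 25.3, 135, 268 and 241 CPM in the 4 stages of the ipsilateral library, and at 18.1, 174, 221 and 259 CPM in those of the contralateral library. Precursors lay far below every later stage, and newly formed and mature values overlapped. Committed over precursor cells showed a rise of 2.89 ± 0.17 (log2, adjusted p = 2.21e-09), and newly formed over committed one of 0.82 ± 0.15 (adjusted p = 0.000819), with 1.08 in the ipsilateral and 0.48 in the contralateral library alone. Mature over newly formed, 0.58 ± 0.13 (adjusted p = 0.00139) under TMM became 0.016 (adjusted p = 0.926) with library sizes only and 0.16 (adjusted p = 0.369) with the stricter gate. The rise over the whole span, mature over precursor, was 4.29 ± 0.16 (adjusted p = 2.75e-13).

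Zfp488 encodes a zinc finger protein known to work with OLIG2 in promoting differentiation. It stood at 46.1, 71.0, 128 and 14.9 CPM in the 4 stages of the ipsilateral library, and at 44.3, 92.1, 126 and 14.4 CPM in those of the contralateral library. Newly formed cells held the peak and mature cells the low in both, with no overlap. The log2 fold change was 0.94 ± 0.14 committed over precursor (adjusted p = 4.35e-05), 0.80 ± 0.14 newly formed over committed (adjusted p = 0.000448), −2.56 ± 0.13 mature over newly formed (adjusted p = 3.69e-11) and −0.82 ± 0.13 mature over precursor (adjusted p = 2.1e-05).

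St18 encodes a zinc finger factor of the Myt1 family. In precursors it was close to the detection limit, with 7 UMIs (1.35 CPM) in the ipsilateral and 9 UMIs (2.87 CPM) in the contralateral library. Committed, newly formed and mature cells had 43.2, 79.6 and 89.9 CPM in the ipsilateral library, and 41.8, 83.1 and 87.6 CPM in the contralateral library. The committed over precursor log2 fold change was 4.59 ± 0.26 (adjusted p = 1.11e-09), 4.85 in the ipsilateral and 3.75 in the contralateral library alone. Newly formed over committed it was 1.03 ± 0.16 (adjusted p = 0.000183). Mature over newly formed, 0.69 ± 0.12 (adjusted p = 0.000145) under TMM, was lost with library sizes only (0.13, adjusted p = 0.38) and with the stricter gate (0.30, adjusted p = 0.133). Mature over precursor it was 6.31 ± 0.20 (adjusted p = 3.11e-14), with 6.58 in the ipsilateral and 5.50 in the contralateral library alone.

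Per cell, the factors were read as the share of barcodes with at least 1 UMI after each barcode was thinned to 6000 UMIs, because mature cells were deeper (median 28420 UMIs in the ipsilateral and 27288.5 in the contralateral library) than precursors (12467 and 10148). Thinning left out 24 ipsilateral and 25 contralateral precursors and 30 and 5 mature cells. Olig1 was found in 99.8% of ipsilateral and 99.8% of contralateral mature cells, and in 100% of precursors in both libraries. Endothelial-like cells, which should lack it, showed it in 20.6% of 97 ipsilateral and 16.7% of 150 contralateral barcodes, also thinned to 6000 UMIs. Unthinned, that class had medians of 8355 and 8272 UMIs. Its shares serve as a background, whose source was not tested. Nkx6-2 was found in 97.2% of ipsilateral and 97.1% of contralateral mature cells. In precursors it was found in 8.83% (exact 95% interval 6.08 to 12.3%) and 6.67% (4.00 to 10.3%), close to the 7.22% (2.95 to 14.3%) and 2.67% (0.731 to 6.69%) of endothelial-like cells. Its precursor level thus cannot be told apart from that background. St18 was found in 0.570% of ipsilateral and 2.22% of contralateral precursors (6 of 270), against 1.03% of ipsilateral and 0 of 150 contralateral endothelial-like barcodes, so the libraries did not lean the same way. Sox6 was left in 1.41% of ipsilateral and 0.963% of contralateral mature cells, against 75.5% and 74.1% of precursors, and in 0 of 97 and 0 of 150 endothelial-like barcodes, which allows up to 3.09% and 2.00%. Unthinned, the Sox6 shares were 5.04% and 3.82% of mature cells against 90.7% and 87.1% of precursors. The limits are the share that 3 barcodes would give and bear on barcodes with a UMI, not on cells that express the gene. Intervals and limits of this kind cover counting error only. Of 160 readings of these shares in the 4 stages at 10000 UMIs or unthinned, 121 lay outside the interval found at 6000 UMIs.

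**Figure D3:**
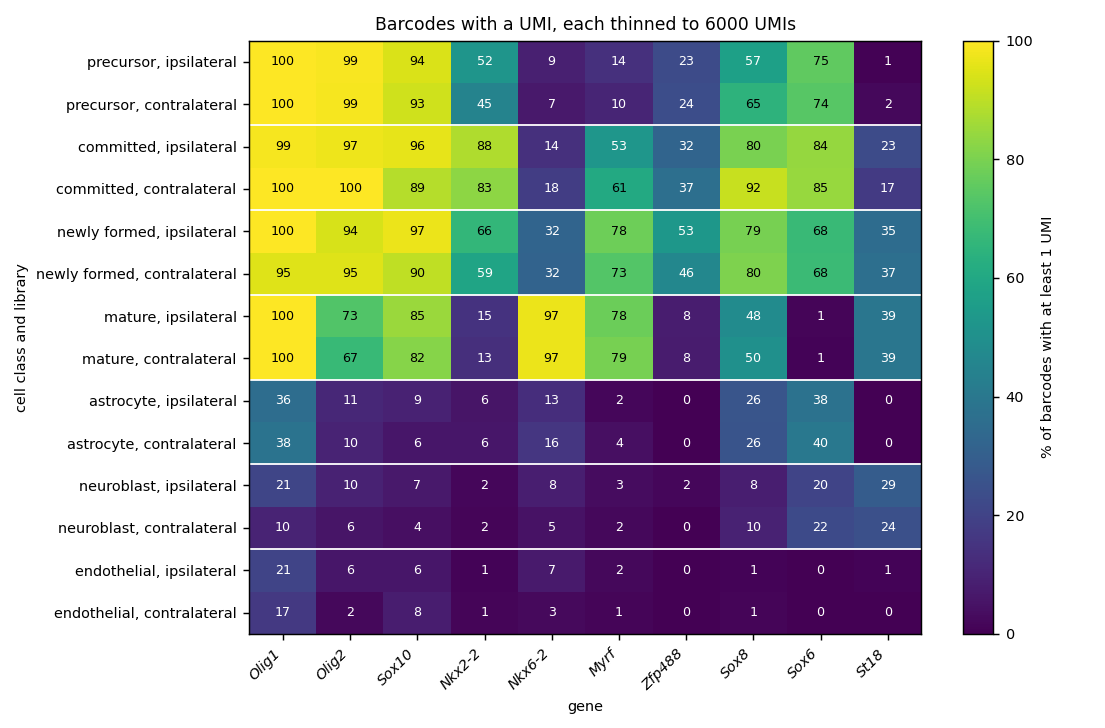
Percent of barcodes with at least 1 UMI of each factor (columns) in each cell class and library (rows, ipsilateral above contralateral), each barcode thinned to 6000 UMIs. Nkx6-2 is found in 97.2% and 97.1% of mature cells of the ipsilateral and contralateral library and Sox6 in 1.41% and 0.963%.

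The middle stages held the most factors at once. A thinned barcode had UMIs of a median of 5 of the 10 factors in precursors, 7 in committed cells, 7 in newly formed cells and 5 in mature cells, with the same medians in both libraries. Olig1 and Olig2 were found together in 98.9% of ipsilateral and 98.5% of contralateral precursors and in 72.7% and 67.2% of mature cells. Olig1 without Olig2 was read in 27.1% of ipsilateral and 32.6% of contralateral mature cells at this depth, but in 15.0% and 19.2% when thinned to 10000 UMIs. Unthinned, Olig2 was found in 96.4% of ipsilateral and 95.2% of contralateral mature cells, so these shares follow depth and do not count cells that lack Olig2. Nkx2-2 was found in 52.1%, 88.0%, 66.2% and 14.8% of ipsilateral precursor, committed, newly formed and mature cells, and in 44.8%, 83.1%, 58.5% and 13.5% of contralateral ones. Zfp488 reached 52.9% of ipsilateral and 46.3% of contralateral newly formed cells and was found in 8.02% and 7.71% of mature cells.

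Outside the lineage most factors were low, with Sox6 and St18 as exceptions. Sox6 had 70.0 CPM in ipsilateral and 83.3 CPM in contralateral astrocyte-like cells, and 57.1 and 47.7 CPM in neuroblast-like cells, above its level in mature oligodendrocytes in each library. St18 had 77.7 CPM in ipsilateral and 64.6 CPM in contralateral neuroblast-like cells, against 0.947 and 1.28 CPM in endothelial-like cells and no UMI in astrocyte-like cells. Sox8 was measured in astrocyte-like cells as well, at 73.2 CPM in the ipsilateral and 76.6 CPM in the contralateral library. There 1 barcode held 22.2% of the Sox8 UMIs in the ipsilateral and 10.9% in the contralateral library. Nkx6-2 had 48.8 CPM in ipsilateral and 43.3 CPM in contralateral astrocyte-like cells, against 17.2 and 12.4 CPM in precursors. A single astrocyte-like barcode held 26.7% of those UMIs in the ipsilateral and 23.1% in the contralateral library. Olig1 reached 138 CPM in ipsilateral and 85.0 CPM in contralateral astrocyte-like cells, but 1 ipsilateral barcode held 37.6% of those UMIs. Sox10 and Myrf stayed at or below 16.3 CPM in each of these 3 classes, and Zfp488 at or below 1.24 CPM.

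Between the sides no test is possible, because each side is 1 library. Within each stage the 2 libraries were set against each other as the log2 ratio of CPM, ipsilateral over contralateral, with 5 CPM added. In none of the 4 stages did a factor pass 1.5-fold, out of 39 ratios with at least 50 UMIs (St18 in precursors had fewer). Of all genes counted, 2.95% were past 1.5-fold in either direction in precursors, 4.97% in committed cells, 6.21% in newly formed cells and 0.734% in mature cells, so a count of 0 among 10 is near what all genes showed. Medians over the factors were 0.024, −0.077, 0.090 and 0.033 in the 4 stages, against −0.049, −0.037, 0.027 and 0.0064 over all genes.

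The largest ratio was that of Nkx6-2 in committed cells, −0.53, with 30.5 CPM (95% interval 24.9 to 37.1) in the ipsilateral and 46.4 CPM (35.4 to 59.8) in the contralateral library, where 1 barcode held 20.0% of the UMIs. It passed 1.5-fold with 1 CPM added (−0.59) and with the stricter gate (−0.86). Nkx2-2 leaned the other way in the early stages, with 134 CPM in ipsilateral against 105 CPM in contralateral precursors (0.33) and 441 against 343 CPM in committed cells (0.36), yet 26.9 against 26.6 CPM in mature cells (0.016). Myrf and Zfp488 were lower in ipsilateral committed cells, at 135 against 174 CPM and 71.0 against 92.1 CPM (−0.36 and −0.35). In newly formed cells Sox10 (719 against 592 CPM), Myrf (268 against 221 CPM) and Olig2 (593 against 503 CPM) were higher in the ipsilateral library, by 0.28, 0.27 and 0.24. Markers of mature cells summed to 4764 CPM in ipsilateral and 3434 CPM in contralateral newly formed cells, and the part of that difference in these ratios was not tested.

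Mature cells had the most UMIs, and counting intervals there were narrow for the abundant factors but wide for Sox6 (log2 ratio with no CPM added 0.56, 95% interval −0.17 to 1.33). Olig2 had 242 CPM (236 to 248) in ipsilateral and 208 CPM (201 to 215) in contralateral mature cells, a log2 ratio of 0.21. Nkx6-2 was at 703 CPM (693 to 713) in ipsilateral and 624 CPM (611 to 637) in contralateral mature cells, a log2 ratio of 0.17. Myrf, at 241 against 259 CPM (−0.097), was the only factor of the 10 below 0 in this stage. Counting intervals that do not overlap say nothing of how animals differ.

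**Figure D4:**
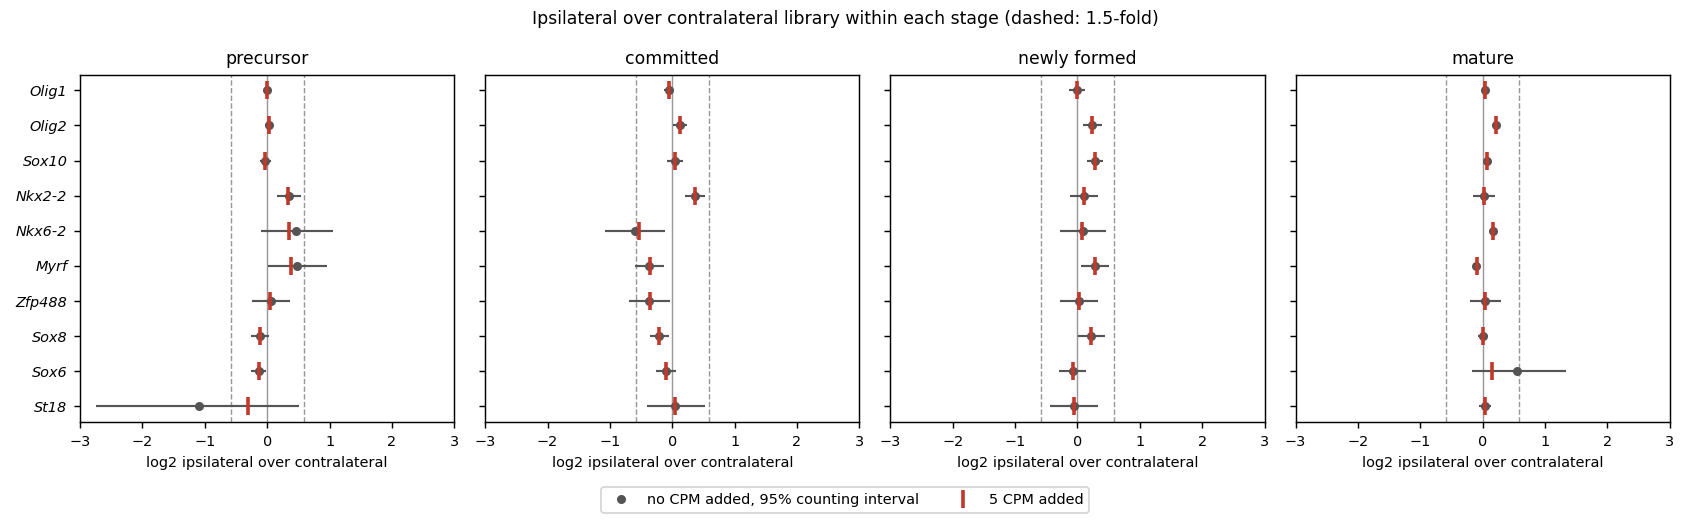
Log2 ratio of each factor, ipsilateral over contralateral library, in the 4 stages, with no CPM added (grey points, bars for the 95% counting interval) and with 5 CPM added (red ticks); dashed lines mark 1.5-fold. No red tick lies beyond a dashed line, and the farthest is Nkx6-2 in committed cells at −0.53.

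Some mature cells carried UMIs of C4b or Serpina3n, genes known to rise in reactive oligodendrocytes: 305 of 953 in the ipsilateral and 52 of 524 in the contralateral library. The factors differed little between these cells and the other mature cells of the same library, with log2 differences between −0.19 and 0.37. Nkx6-2 had 752 CPM with and 679 CPM without such UMIs in the ipsilateral library (log2 0.15), and 586 and 628 CPM in the contralateral library (−0.099), so its direction was not the same in both. Olig1 was slightly lower in these cells in both, at 1274 against 1394 CPM in the ipsilateral and 1276 against 1332 CPM in the contralateral library. The value of 0.37 was that of Sox6 in the contralateral library and rests on 5 and 17 UMIs.

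Likeness of level over cell classes was measured as Pearson's r of log2(CPM + 5) over 12 sums (6 classes in 2 libraries, newly formed cells left out for size). Classes share libraries and the sums are not independent points. Astrocyte-, neuroblast- and endothelial-like cells are among the classes, so r also reads the lineage against other cells and not the stages alone. Among 6594 other genes the closest were Lrp1b and Map7d2 to Olig1 (r = 0.99 and 0.98), Lrrc4c and Nalcn to Olig2 (both 0.98), Prkcq and Tmem163 to Sox10 (both 0.99), and Dnajb14 and Ncam2 to Sox8 (both 0.98). Grtp1 and Gria2 were closest to Sox6 (both 0.99), Abtb2 and Chst3 to Nkx2-2 (0.99 and 0.98), and Smim1 and Slc48a1 to Nkx6-2 (0.98 and 0.97). Aatk and Polr3e were closest to Myrf (both 0.99), Sulf2 and Sowaha to Zfp488 (0.99 and 0.98), and Ssna1 and Dync1i2 to St18 (0.95 and 0.94). Among the factors themselves the closest pair was Olig1 and Olig2 (0.97), though the step from newly formed to mature, where they went opposite ways, could not enter r. The pair farthest apart was Nkx6-2 and Sox6 (−0.33).

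Other transcription regulators of the lineage were read beside the 10. Of 14 genes tied to the precursor state or known to repress differentiation, 13 were tested. Mature over precursor, 12 fell and 1 missed the threshold, where 37.1% of all genes fell. The median log2 fold change was −4.92, against −0.028 over all genes. A fall is what picking genes for the precursor state would give, so the count is a description. Those that fell included the Notch-driven repressors Hes1 (−6.73) and Hes5 (−6.42), the group D partner of Sox6, Sox5 (−6.72), and the homeodomain factor Prrx1 (−6.48). Of 16 partners and differentiation factors 6 rose and 6 fell, a share near that of all genes in this comparison (36.3% and 37.1%). Among them were the nuclear receptors Rxrg (−7.64) and Thrb (−4.24), Myt1 (−4.91), and Zfp536 (3.07), which rose. The Rxrg value rests on 62 ipsilateral and 50 contralateral UMIs in precursors and 1 and 0 in mature cells. Thrb had 14 and 5 UMIs in mature cells. Of 8 chromatin regulators 2 rose and 3 fell, too few to set apart from those shares, with changes such as the arginine methyltransferase Prmt5 (−1.48), the deacetylases Hdac2 (−0.92) and Hdac1 (0.34), and the remodeller Chd8 (0.34). Between the sides, 4 of the 13 precursor state and repressor genes counted in precursors were past 1.5-fold, all lower in the ipsilateral library. Hes1 had 182 CPM in ipsilateral against 307 CPM in contralateral precursors (log2 ratio −0.74), and Hes5 207 against 329 CPM (−0.66). Id4 had 7.90 against 15.6 CPM (−0.67), and Sox9, which reached 1365 CPM in ipsilateral and 1508 CPM in contralateral astrocyte-like cells, had 11.0 against 20.1 CPM (−0.65). Astrocyte markers moved the same way in these precursors (502 CPM in the ipsilateral against 633 CPM in the contralateral library), and their part in these ratios was not tested. The 9 factors counted in precursors stayed between −0.13 and 0.39.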

How the data were processed

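The deposited values are UMI counts per gene and barcode, made by the authors with Cell Ranger 3.1.0 on build mm10, per the submitters' processing notes. Alignment options: not given in the sources used here. Per the labels, each of the 2 libraries pooled 3 animals. Barcode and feature tables hold names only. The 10 genes, the markers and the other lists were chosen with earlier results of these data known, and the scoring thresholds of the stage gate after seeing the files.

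Counts were scaled to 10000 per barcode and log-transformed. Each marker was divided by its 99% quantile, and the mean over a class's markers was its score. A stage needed its own score at 0.4 or more (mature 0.5) and scores of other classes under set limits; newly formed cells had no limit on the committed score and one of 0.5 on the mature score. A stricter gate moved every threshold by 0.1. No doublet calls were removed in the main sums. Scrublet, run for comparison, called 101 ipsilateral and 14 contralateral barcodes, most of which the gate left unnamed, and leaving them out was an alternative. UMIs were summed per class and library (1083471 to 27531189 UMIs per stage sum) and tested with edgeR 4.0.16 in R 4.3.3, checked on simulated data, with DESeq2 1.42.0 as an alternative. With no statement of replicates beyond the 2 libraries, p-values rest on how far the stage differences disagree between them. That spread is moderated over all genes tested and is not each gene's own. Genes named are the 10 factors, up to 4 called genes a list with the largest mature over precursor change, and the 2 genes most alike each factor. Hes1, Hes5, Id4 and Sox9 between the sides were added after their values were seen. Other software was scanpy 1.11.5 and scipy 1.17.1.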

Additional observations from a re-analysis of the deposited data

How the results depend on the processing

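Of the stage-step alternatives, only library sizes in place of TMM turned a direction, for Sox10 (−0.60) and Sox8 (−0.65) mature over precursor; counts of called genes stayed within 1.5 times of the main counts throughout. That includes leaving out mature barcodes with C4b or Serpina3n UMIs, an alternative chosen for these steps after seeing the data. Without the library block (no replicate block) 4333, 1765, 6585 and 8591 genes were called for committed over precursor, newly formed over committed, mature over newly formed and mature over precursor, against 4707, 2012, 6841 and 8914 with it, and of the factors' calls 1 was lost, Olig2 newly formed over committed (−0.41, adjusted p = 0.0586). No paired analysis was possible because, between the sides, each side has 1 library. Within 1 library alone no factor changed direction at any step. Counts of genes past 1.5-fold between the sides depended on the settings. In precursors 319 genes became 637 with 1 CPM added and 65 with 20 CPM. In committed cells 427 became 670 and 105, and 687, 227 and 886 with minimums of 20, 100 and 1 UMIs. In newly formed cells 448 became 142 with 20 CPM added, and 864, 224 and 1273 with those minimums. In mature cells 80 became 260 with 1 CPM added, 28 with 20 CPM and 52 without barcodes that had C4b or Serpina3n UMIs. The causes were not tested. Depth limits St18 in precursors, Nkx6-2 and Myrf in early stages and Sox6 in mature cells, and 70 and 43 barcodes limit the newly formed stage.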
